A study of Macaca fascicularis with 34 samples.

Results

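Transcript levels of 7 genes of the NODAL pathway were followed in 34 single cells of cynomolgus monkeys (Macaca fascicularis), a macaque used as a primate model of early development. The genes were taken by human symbol: the ligand genes NODAL, GDF3 and INHBA, the co-receptor gene TDGF1, the antagonist genes CER1 and LEFTY2, and the nuclear factor gene FOXH1. All 7 are among the 28551 genes of the table. None was chosen by a measured value, but earlier results of these data were known when the list was set. The table places NODAL (gene ID 102129274) on monkey chromosome 9, GDF3 (102146403) on 11, INHBA (102146142) on 3 and TDGF1 (102143209) on 2. It places CER1 (102142399) on 15, LEFTY2 (102144954) on 1 and FOXH1 (102129136) on 8, and lists all 7 as protein-coding. Male gonads gave 9 cells, 6 of embryonic day (E) 36, 1 of E47 and 2 of E55. Embryos gave 25 cells, 3 of E13, 1 of E14, 11 of E16, 2 of E17 and 8 of E20. The labels name no treatment, genotype, cell type or animal, so each stage stands as 1 sample, and cells of a stage may share an animal. Levels are given in RPM, reads of a gene scaled to a common library total, and no difference was tested.

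NODAL is a secreted ligand of the TGF-beta superfamily that signals through activin receptors together with an EGF-CFC co-receptor, of which TDGF1, also called Cripto, is an example. The receptors phosphorylate SMAD2 and SMAD3, which enter the nucleus with SMAD4 and bind DNA through partners such as FOXH1. In the mouse, NODAL signalling patterns the early embryo and induces mesoderm and endoderm, and its targets include NODAL itself and the extracellular inhibitors LEFTY2 and, in endoderm, CER1. GDF3 is a related ligand known from pluripotent cells, and INHBA encodes the subunit of activin A, which uses the same receptors without a co-receptor.

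Cells were grouped by clustering on other genes, with every gene of the pathway left out, and the groups were read against marker lists. The first held 26 cells, in which 14 of 14 germ cell markers had a mean of 15 RPM or more, and is called germ-cell-like. The other held 8 cells, namely E20 cells 1 to 7 with E16 cell 8. Its mean reached 15 RPM for 10 of 10 mesoderm markers, and it is called mesoderm-like. The mean of these 8 cells also reached that level for 9 of 14 germ cell, 6 of 10 amnion and 6 of 8 endoderm markers, so they are a mixed group. E16 cell 8 had 8 of 8 endoderm markers at 15 RPM or more, with 5925 RPM summed, and E17 cell 2 had 4 of 8, with 723 RPM. Another linkage moved 1 cell, E17 cell 2, and left 33 of 34 in place. Gonadal somatic markers were highest in the E47 cell, with 9 of 12 at 15 RPM or more and 20387 RPM summed, followed by E36 cell 5 with 7 and E55 cell 2 with 5.

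Depth ran from 472188 to 3556592 reads per cell. The E13 cells were the shallowest, at 472188 to 775711 reads, so that 3 reads, the limit set by a count of 0, stood for 3.87 to 6.35 RPM there and for 0.844 to 1.55 RPM in the E16 cells. The titles carry codes that follow the stages: MS10 at E13, MS13 at E14, MS09 at E16 and for E20 cell 8, MS08 for E20 cells 1 to 7, and MS11 at E17 and in the gonad. Stage, organ and code therefore cannot be told apart for most comparisons. Intervals cover counting error only, since the cDNA was amplified and its molecules carry no identifiers.

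**Figure D1:**
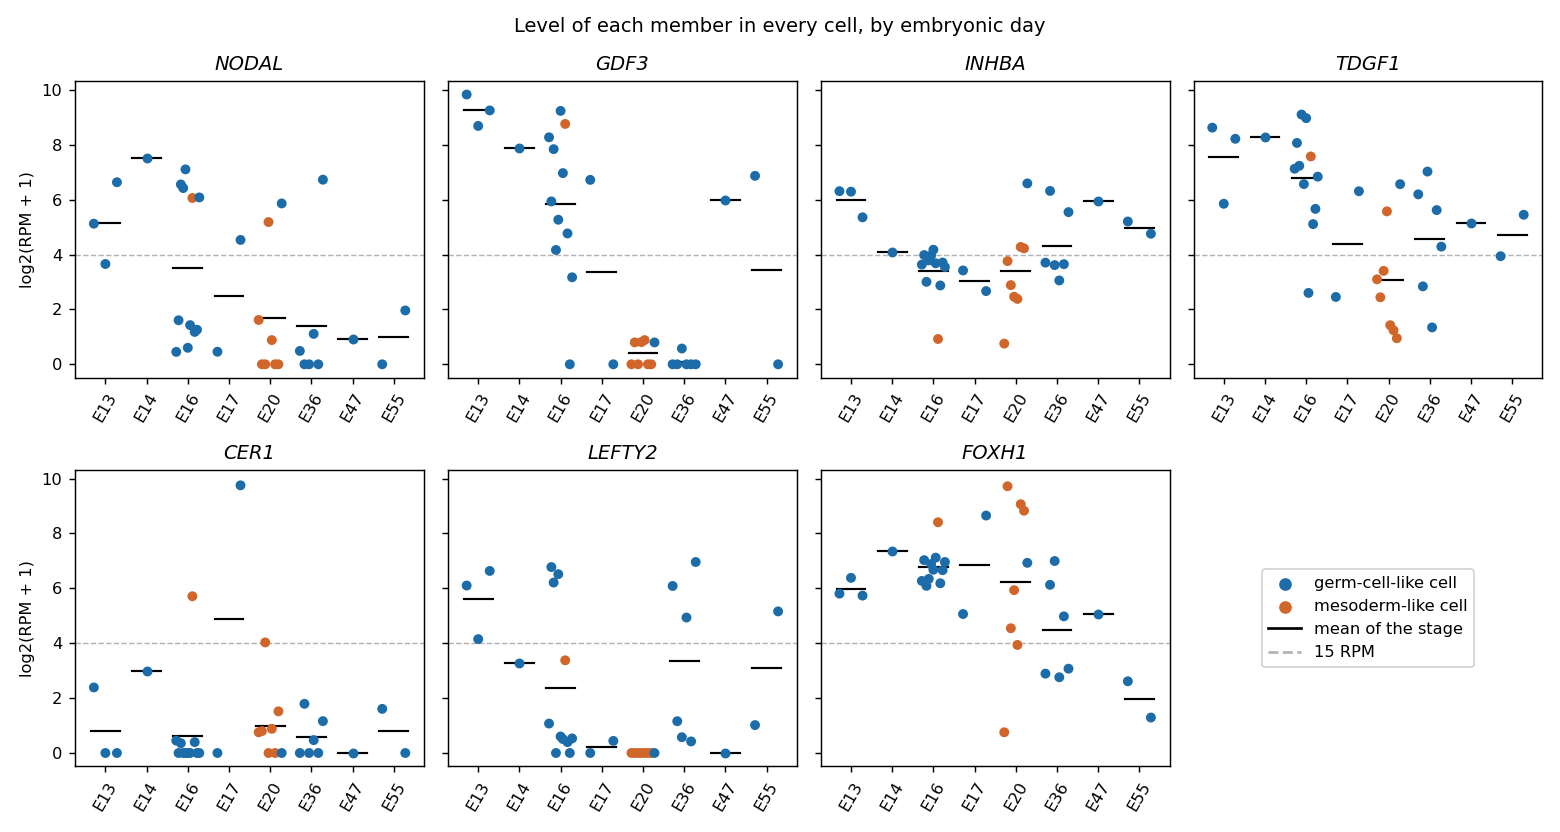
Level of each member in every cell (vertical axis, log2(RPM + 1)) by embryonic day (horizontal axis), with germ-cell-like cells in blue, mesoderm-like cells in orange, a black line at the stage mean and a dashed line at 15 RPM. At E20 the 7 mesoderm-like cells are low for GDF3 and LEFTY2, and 5 of the 7 reach 15 RPM of FOXH1, up to 844 RPM.

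NODAL was on in some cells of a stage and nearly off in others. It reached 15 RPM in 12 of the 34 cells, of which 11 were embryo cells. At E13 the cells held 33.9, 11.6 and 98.4 RPM, and the E14 cell held 184 RPM, the highest level of the series. Among the 11 E16 cells NODAL ran from 0.368 to 136 RPM with a median of 2.04 RPM. The cells formed a high set of 5 cells, at 65.8 RPM or more, and a low set of 6 cells, at 2.04 RPM or less, with none between. The E17 cells held 0.373 and 22.1 RPM. At E20 NODAL ran from 0 to 57.2 RPM with a median of 0.421 RPM, and only cells 4 and 8 passed 15 RPM, at 35.4 and 57.2 RPM.

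In the gonad NODAL came almost entirely from 1 cell. The E36 cells held 0.401, 0, 0, 1.15, 0 and 105 RPM, the E47 cell 0.907 RPM, and the E55 cells 0 and 2.90 RPM. E36 cell 6 supplied 90.4% of the NODAL reads of the 9 gonad cells. Its depth was 809114 reads, its germ cell markers summed to 2494 RPM with 13 of 14 at 15 RPM or more, and its gonadal somatic markers to 187 RPM with 3 of 12. Summed over cells, NODAL stood at 6.20 RPM in the gonad (exact Poisson interval 5.01 to 7.59) and 40.0 RPM in the embryo (38.3 to 41.9). Ordered by mean, the stages ran E14, E13, E16, E36, E20, E17, E55 and E47. The ranges of neighbours in that order overlapped in 6 of 7 pairs, the exception being the single E14 cell above E13.

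GDF3 was highest at E13 and was close to its counting limit at E20 and E36. The E13 cells held 911, 411 and 609 RPM and the E14 cell 237 RPM. At E16 the level ran from 0 to 602 RPM with a median of 60.2 RPM, and 9 of 11 cells reached 15 RPM. The E17 cells held 105 and 0 RPM. At E20 no cell reached 1 RPM: the highest was 0.843 RPM, the median 0.369 RPM, and all 8 cells together gave 5 reads.

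The gonad cells split for GDF3. All 6 E36 cells together held 1 read, at 0.489 RPM in cell 3. The E47 cell held 61.7 RPM, and the E55 cells held 116 and 0 RPM. The E47 cell was the richest in gonadal somatic markers, whereas E55 cell 1 had 1 of 12 of these markers at 15 RPM or more and 14 of 14 germ cell markers; the part of somatic transcripts in the GDF3 level was not tested. On summed reads GDF3 was 396-fold lower at E20 than at E16 (interval 169 to 1219), with 0.412 RPM at E20 and 163 RPM at E16. It was 1907-fold lower at E36 than at E16, an estimate that rests on 1 read and has an interval of 342 to 75321. The stages ran E13, E14, E16, E47, E55, E17, E20 and E36 by mean, and neighbours overlapped in 6 of 7 pairs, the exception being E13 above the E14 cell.

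Every cell held some reads of INHBA, as of TDGF1 and FOXH1. INHBA ran from 0.687 to 95.5 RPM over the 34 cells, with 13 at 15 RPM or more. The E13 cells held 78.4, 77.3 and 40.0 RPM, and the E14 cell 16 RPM. At E16 it ran from 0.895 to 17.1 RPM with a median of 11.8 RPM, so that every E16 cell lay below every E13 cell. The E17 cells held 9.71 and 5.36 RPM. At E20 the range was 0.687 to 95.5 RPM and the median 9.48 RPM, with the highest level in cell 8, the germ-cell-like cell of that stage.

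Gonad cells held INHBA at 7.31 to 78.8 RPM at E36 (median 11.8 RPM), 60.8 RPM at E47, and 35.9 and 26.1 RPM at E55. The lowest cells of the series were E20 cell 1 and E16 cell 8, at 0.687 and 0.895 RPM. By mean the stages ran E13, E47, E55, E36, E20, E14, E16 and E17, and neighbours overlapped in 6 of 7 pairs, the exception being E47 above E55.

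The pattern of INHBA over cells was nearly that of several genes with no place in the pathway. The gene most like it was EBF1, a B cell transcription factor, with a Pearson correlation of log2(RPM + 1) of 0.94 over the 34 cells. EMX2, a homeobox gene, followed with 0.94, then TMPRSS11B with 0.90 and CELF4 with 0.89. In all 7 genes reached 0.85 for INHBA, and 0 did for each of NODAL, GDF3, TDGF1, LEFTY2 and FOXH1. These points share library and depth, and the correlation with depth was -0.45 for INHBA, -0.44 for EBF1 and -0.53 for EMX2.

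EBF1 and INHBA were high in the same cells. In E20 cell 8 INHBA was at 95.5 RPM, EBF1 at 89.3 RPM and EMX2 at 86.3 RPM. That cell had 2711019 reads, while E36 cells 2 and 6 had 811998 and 809114 reads. In E36 cells 2 and 6 INHBA was at 78.8 and 45.7 RPM and EBF1 at 48.0 and 44.5 RPM. In the deeper E36 cells 1, 3, 4 and 5 INHBA was at 12, 11.3, 7.31 and 11.5 RPM and EBF1 at 12, 7.34, 3.08 and 7.81 RPM. The log2 ratio of EBF1 to INHBA had an SD over cells of 0.48, against 1.41 for INHBA itself. The INHBA differences between stages below therefore run beside like differences of EBF1 and EMX2, and what the genes share was not tested.

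**Figure D2:**
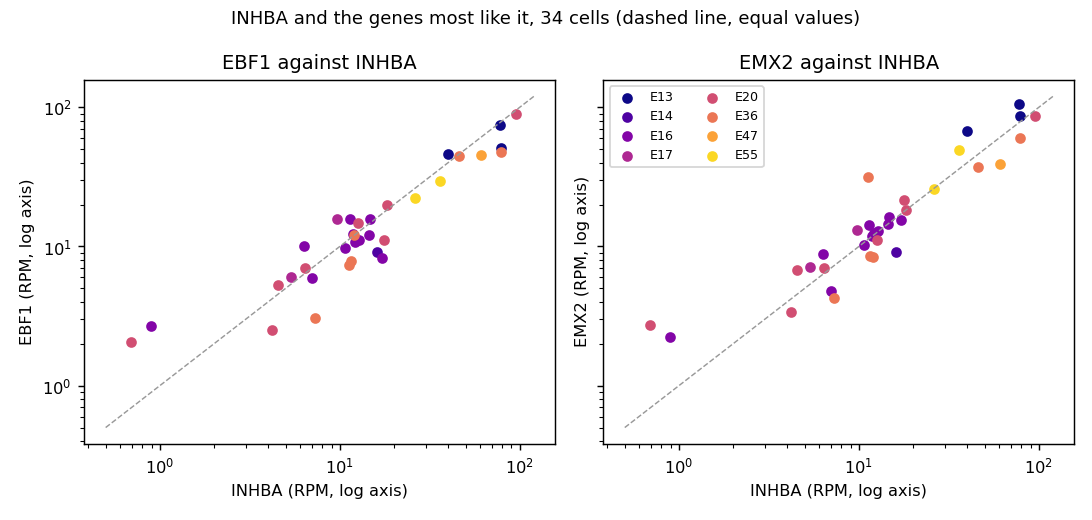
EBF1 (left) and EMX2 (right) against INHBA in each of 34 cells, in RPM on log axes, coloured by stage, with a dashed line of equal values. The 3 E13 cells and E20 cell 8 lie at the upper end beside gonad cells, and most E16 cells lie near 10 RPM on both axes.

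TDGF1, which lets NODAL engage its receptor, was widespread in the embryo before E20. It reached 15 RPM in 23 of 34 cells and every cell held some reads. The E13 cells held 394, 56.7 and 297 RPM and the E14 cell 312 RPM. At E16 the level ran from 5.07 to 548 RPM with a median of 139 RPM, and 10 of 11 cells reached 15 RPM. The E17 cells held 4.48 and 78.2 RPM. At E20 the median was 5.997 RPM and the range 0.933 to 93.7 RPM, with only cells 4 and 8 above 15 RPM.

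Gonad cells kept TDGF1 reads at a median of 34.5 RPM, below the 139 RPM of E16 and above the 5.997 RPM of E20. In the gonad 6 of 9 cells reached 15 RPM, beside 17 of 25 embryo cells. The E36 cells ran from 1.54 to 129 RPM with a median of 33.4 RPM, 4 of 6 reached 15 RPM, the E47 cell held 34.5 RPM, and the E55 cells held 14.3 and 42.7 RPM. Neighbours in the order of stage means, E14, E13, E16, E36, E17, E47, E55 and E20, overlapped in 7 of 7 pairs. The TDGF1 row of the table carries a provisional monkey symbol and is paired with human TDGF1; primate genomes hold processed copies of this gene, and how reads shared with copies were counted is not given in the sources used here.

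NODAL and its co-receptor were found together. All 12 cells with NODAL at 15 RPM or more also had TDGF1 at that level, which 23 of 34 cells did, and 11 of the 12 had FOXH1 too. The exception for FOXH1 was E36 cell 6, at 7.42 RPM. Over the 34 cells, which share depth and stage between the genes, the correlation of log2 levels was 0.57 for NODAL with TDGF1 and 0.54 for GDF3 with TDGF1. Within the 11 E16 cells it was 0.28 and 0.22.

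CER1, a secreted inhibitor that binds NODAL, was a gene of 1 cell. E17 cell 2 held 863 RPM, which is 93.4% of all CER1 reads of the series. E16 cell 8 held 51.5 RPM and E20 cell 3 held 15.3 RPM. No other cell reached 15 RPM, 18 of 34 cells held 0 reads, and the E14 cell followed at 6.93 RPM. In the 10 germ-cell-like E16 cells CER1 summed to 3 reads, or 0.120 RPM (interval 0.0248 to 0.352).

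E17 cell 2 and E16 cell 8, the cells with most CER1, also had the highest endoderm marker counts of the embryo before E20. Other markers were higher in both cells. E17 cell 2 had 10 of 14 germ cell markers at 15 RPM or more, with 1232 RPM summed, beside 723 RPM for endoderm. E16 cell 8 had 9 of 10 mesoderm markers at that level, with 14965 RPM summed, beside 5925 RPM for endoderm. EOMES, a T-box factor of mesoderm and endoderm, was at 420 RPM in E17 cell 2 and 248 RPM in E16 cell 8. FOXA2, an endoderm factor, was at 191 and 25.5 RPM in these cells. Both cells were also high for FOXH1, at 402 and 339 RPM. In the gonad CER1 gave 6 reads over 9 cells, or 0.396 RPM (interval 0.145 to 0.862), and 0 reads in the E47 cell, where a count of 0 allows up to 2.72 RPM. By mean the stages ran E17, E14, E16, E20, E13, E55, E36 and E47, with overlap in 7 of 7 neighbouring pairs.

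LEFTY2, a feedback inhibitor induced by NODAL in the mouse, was present at E13, in a few E16 cells, absent from the E20 reads, and present again in some gonad cells. The E13 cells held 67.8, 16.8 and 98.4 RPM, and the E14 cell 8.66 RPM. At E16 cells 2, 3 and 5 held 109, 73.1 and 90.6 RPM, cell 8 held 9.40 RPM, and the other 7 held 1.11 RPM or less. The E17 cells held 0 and 0.357 RPM. All 8 E20 cells held 0 reads, which over their summed depth allows up to 0.247 RPM. With 3 reads put in for that 0, LEFTY2 was 107-fold lower at E20 than at E16 on summed reads. The exact interval of the fold starts lower, at 86.8.

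Of the gonad cells 4 passed 15 RPM for LEFTY2. E36 cells 1, 4 and 6 held 67.0, 29.6 and 124 RPM, and the other E36 cells held 1.23, 0.489 and 0.340 RPM. The E47 cell held 0 RPM, and the E55 cells held 1.02 and 34.8 RPM. These 4 cells differed in NODAL: E36 cell 6 had 105 RPM, while the other 3 held between 0.401 and 2.90 RPM. In the embryo 4 of the 6 cells with LEFTY2 at 15 RPM or more had NODAL at that level as well.

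LEFTY1, the close paralog beside LEFTY2, is not a member but bears on the counts, since reads could be split between near-identical copies. It reached 15 RPM in E13 cell 1 and E16 cells 3, 5 and 6, at 131, 22.2, 50.5 and 29.5 RPM. In the gonad it gave 2 reads in all, in cells that hold little or no LEFTY2. Either gene reached 15 RPM in 11 of 34 cells, 4 in the gonad and 7 in the embryo, and 5 of the 11 had NODAL at that level. By mean LEFTY2 the stages ran E13, E36, E16, E55, E14, E17, E20 and E47, with overlap in 6 of 7 neighbouring pairs, the exception being the E14 cell above E17.

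**Figure D3:**
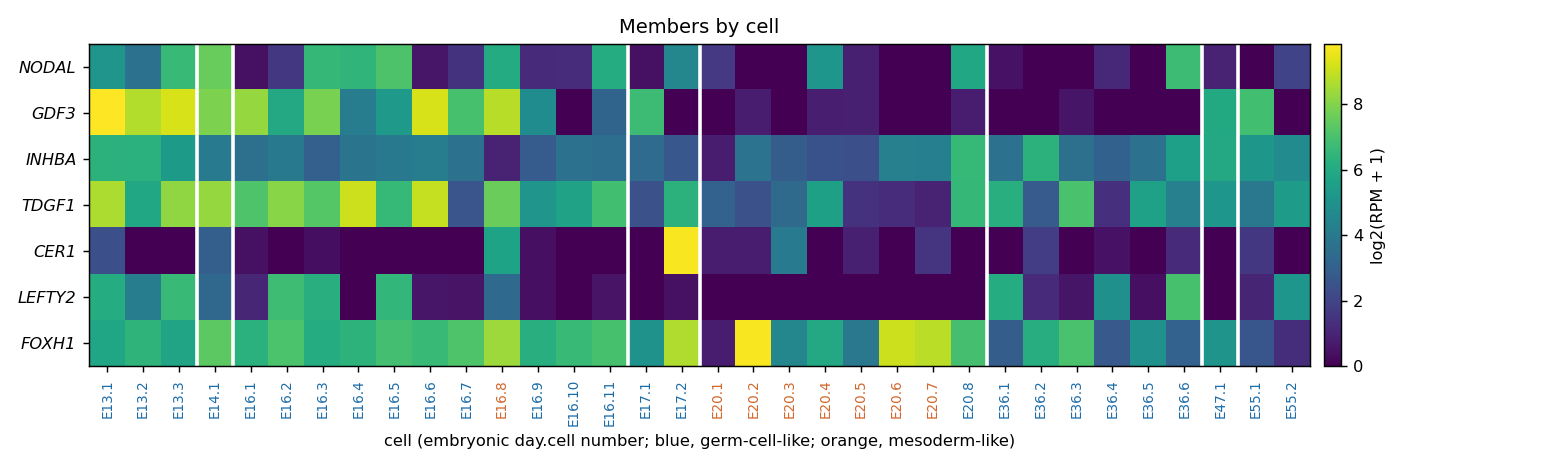
Level of each member (rows) in each cell (columns, embryonic day and cell number, white lines between stages), as log2(RPM + 1) by colour. FOXH1 forms a nearly full row through the embryo stages, LEFTY2 is dark in all 8 E20 cells, and NODAL is bright in E36 cell 6 alone among gonad cells.

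FOXH1, the forkhead factor that recruits SMAD2 and SMAD4 to NODAL targets, was present in nearly all embryo cells. It reached 15 RPM in 23 of 25 embryo cells and in 4 of 9 gonad cells. The E13 cells held 55.1, 82.5 and 52.3 RPM and the E14 cell 162 RPM. The 10 germ-cell-like E16 cells lay between 67.2 and 138 RPM with a mean of 101 ± 25.8 RPM (SD), while NODAL averaged 38.8 ± 51.5 RPM in the same cells. The E17 cells held 32.5 and 402 RPM.

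The E20 cells spanned the whole range of FOXH1. Cells 1 to 8 ran from 0.687 RPM in cell 1 to 844 RPM in cell 2, with a median of 90.6 RPM. Cells 2, 6 and 7 were the highest of the series, at 844, 536 and 454 RPM, and none of them held NODAL reads. In these cells T, the mesoderm factor brachyury, was at 4381, 1656 and 3593 RPM, and MIXL1, a homeobox gene of mesendoderm, at 395, 19.7 and 611 RPM. T was among the 5 genes most like FOXH1 over the 34 cells, with a correlation of 0.66, after CLDN6, IFITM1 and VRTN.

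In the gonad FOXH1 was low in most cells. At E36 cells 2, 3 and 5 held 69.0, 127 and 30.6 RPM, and cells 1, 4 and 6 held 6.42, 5.77 and 7.42 RPM. Cells 1, 4 and 6 are those with LEFTY2 above 15 RPM, so at E36 no cell passed 15 RPM for both genes. In the embryo all 6 cells with LEFTY2 above 15 RPM also passed 15 RPM for FOXH1. The E47 cell held 32.7 RPM of FOXH1, and the E55 cells 5.12 and 1.45 RPM. The stages ran E20, E17, E14, E16, E13, E36, E47 and E55 by mean, with overlap in 6 of 7 neighbouring pairs, the exception being the E47 cell above E55.

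The number of members at 15 RPM or more in a cell was lower at the later embryo stages. It was 5 to 6 of 7 at E13, 5 at E14, 2 to 5 with a median of 4 at E16, 2 and 4 at E17, and 0 to 4 with a median of 2 at E20. Gonad cells had 1 to 4 with a median of 2. E20 cell 8, the germ-cell-like cell, had 4, beside a median of 3.5 in the germ-cell-like E16 cells. The 7 mesoderm-like E20 cells had 0 to 3 with a median of 2, and the mesoderm-like E16 cell had 5. Class and stage therefore cannot be told apart at E20. INHBA, which runs with EBF1 and EMX2, counted in 3 of 3 E13 cells and in 1 of 11 E16 cells. Among all genes, 6261 to 6779 reached 15 RPM in E13 cells, 7184 in the E14 cell and 6171 to 8106 in E16 cells. In E17 cells 5102 and 6979 did, in E20 cells 5261 to 7658 and in gonad cells 5233 to 8016. The part of such detection in the member counts was not tested.

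The 9 gonad cells were set against the 25 embryo cells to place the pathway genes after germ cells have reached the gonad. NODAL, GDF3 and FOXH1 were lower in the gonad, LEFTY2 was near the 2-fold line on the higher side, and no member separated the groups without overlap. The share of all genes that separate these 9 and 25 cells was not counted. A member is called here at a difference of mean log2(RPM + 1) of at least 1 in size, which is 2-fold. Lower in the gonad were 3 of 7 members, where 15.1% of 15245 genes were lower by the same rule, and higher was 1 member, where 7.62% of genes were higher. NODAL averaged 12.3 ± 34.8 RPM in gonad cells against 36 ± 50.3 RPM in embryo cells (SD, n = 9 and 25 cells), a difference of -1.96. GDF3 averaged 19.8 ± 41.4 RPM in gonad cells against 165 ± 248 RPM in embryo cells, a difference of -2.91.

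FOXH1 averaged 31.7 ± 41.8 RPM in gonad cells against 167 ± 199 RPM in embryo cells, a difference of -2.56. LEFTY2 averaged 28.7 ± 42.5 RPM in gonad cells against 19.1 ± 35.9 RPM in embryo cells, a difference of 1.06. The LEFTY2 difference went below 2-fold when any 1 of 16 cells was left out, among them E36 cells 1, 4 and 6 and E55 cell 2 (0.56 to 0.81) and all E20 cells (0.98 each). TDGF1, with a difference of -0.92, went past 2-fold lower without any 1 of 12 cells, down to -1.22, and INHBA, with 0.93, past 2-fold higher without any 1 of 8 cells, up to 1.13. The member median was -0.92, beside -0.17 for all genes. With a pseudocount of 10 NODAL stood at -0.94 and LEFTY2 at 0.45.

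CER1 was within 2-fold, at -0.64, although its mean was 0.682 ± 0.985 RPM in gonad cells against 37.8 ± 172 RPM in embryo cells. Most of the latter came from E17 cell 2. On the log2 ratio of means, with 1 RPM added to each mean, CER1 stood at -4.53. Code MS11 joins the gonad cells to the 2 E17 cells. Within it NODAL stood at -1.25, GDF3 at -1.87, FOXH1 at -2.88 and LEFTY2 at 2.70, with E17 as a pair of unlike cells.

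Restricting the embryo side to its 17 germ-cell-like cells made the differences of NODAL, GDF3 and TDGF1 larger. Against these cells 4 of 7 members were lower in the gonad, where 14% of 14813 genes were, and 0 were higher, where 9.01% were. NODAL stood at -2.66, GDF3 at -4.32, FOXH1 at -2.62 and TDGF1 at -2.03, with TDGF1 averaging 40.8 ± 40.1 RPM in gonad cells against 185 ± 171 RPM in germ-cell-like embryo cells. FOXH1 averaged 113 ± 82.1 RPM in germ-cell-like embryo cells and reached 15 RPM in all 17 of them. LEFTY2 was at 0.38, with 28.7 ± 42.5 RPM in gonad cells against 27.5 ± 41.2 RPM in germ-cell-like embryo cells. With the E47 cell, E36 cell 5 and E55 cell 2 left out, the 3 gonad cells with most somatic markers, the same 4 members were lower, at -2.52, -4.57, -2.52 and -2.41 in the order NODAL, GDF3, FOXH1 and TDGF1. Both comparisons use the same gonad cells and are not independent.

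E20 cells were set against E16 cells, since these embryo stages hold the most cells. The ligand genes NODAL and GDF3, the co-receptor gene TDGF1 and the antagonist gene LEFTY2 were lower at E20, and the ranges of the groups overlapped for all 7 members. The share of all genes whose ranges separate these groups was not counted. Lower at E20 were 4 of 7 members, where 18.9% of 14998 genes were lower, and 0 were higher, where 13.9% were higher. GDF3 averaged 0.384 ± 0.412 RPM at E20 and 168 ± 202 RPM at E16 (n = 8 and 11 cells), a difference of -5.44. TDGF1 averaged 20.7 ± 33.1 RPM at E20 and 190 ± 181 RPM at E16, a difference of -3.72.

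LEFTY2 stood at 0 RPM at E20 and 25.9 ± 42.5 RPM at E16, a difference of -2.36, and NODAL at 11.9 ± 22.0 RPM at E20 and 41.3 ± 49.5 RPM at E16, a difference of -1.83. FOXH1 averaged 257 ± 316 RPM at E20 and 122 ± 76.0 RPM at E16, yet its difference on the log scale was -0.57. Its sign turned to 0.21 without E20 cell 1, and it passed 2-fold lower, at -1.07, without E20 cell 2. The mean RPM of FOXH1 itself, with nothing added, was 2.10-fold higher at E20. With a pseudocount of 10 NODAL stood at -0.91, and on medians LEFTY2 stood at -0.60, since its median at E16 was 0.517 RPM.

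The E20 cells are nearly all of the other cell class and label code, and the sole germ-cell-like E20 cell did not share all of their pattern. E20 cell 8 held 57.2 RPM of NODAL and 93.7 RPM of TDGF1, against medians of 1.87 and 126 RPM in the 10 germ-cell-like E16 cells. Its GDF3 was 0.738 RPM and its LEFTY2 0 RPM, against E16 medians of 48.9 and 0.481 RPM. Within the germ-cell-like cells NODAL was higher at E20, with a difference of 2.59, TDGF1 stood at -0.16 and GDF3 at -4.77. Within code MS09, which joins cell 8 to all E16 cells, NODAL stood at 2.34 and GDF3 at -5.06. Each of these rests on 1 cell.

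The 7 mesoderm-like E20 cells held 5.47 ± 13.2 RPM of NODAL and 10.3 ± 16.4 RPM of TDGF1. Of these only cell 4 passed 15 RPM, with NODAL at 35.4 RPM and TDGF1 at 46.6 RPM; NODAL was at 2.06 RPM in cell 1, at 0.843 RPM in cell 5 and at 0 in the other 4. The mesoderm-like E16 cell, cell 8, held 65.8 RPM of NODAL, 433 RPM of GDF3 and 190 RPM of TDGF1.

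E36 cells were set against E16 cells, the gonad and embryo stages with the most cells. The ligand genes NODAL and GDF3, the co-receptor gene and FOXH1 were lower at E36, and LEFTY2 was just short of 2-fold higher. Lower at E36 were 4 of 7 members, where 30.2% of 14293 genes were lower, and 0 were higher, where 7.28% were. GDF3 averaged 0.0816 ± 0.200 RPM at E36 and 168 ± 202 RPM at E16 (n = 6 and 11 cells), a difference of -5.76. FOXH1 averaged 41.0 ± 48.6 RPM at E36 and 122 ± 76.0 RPM at E16, a difference of -2.31. TDGF1 averaged 46.0 ± 48.9 RPM at E36 and 190 ± 181 RPM at E16, a difference of -2.25.

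NODAL averaged 17.8 ± 42.8 RPM at E36 and 41.3 ± 49.5 RPM at E16, a difference of -2.14, which was -3.20 without E36 cell 6. With a pseudocount of 10 it was -0.95. LEFTY2 averaged 37.1 ± 49.8 RPM at E36 and 25.9 ± 42.5 RPM at E16, a difference of 0.99, which passed 2-fold without any 1 of 7 cells, up to 1.58, and was 0.27 without E36 cell 6. INHBA stood at 0.93, with 27.8 ± 28.7 RPM at E36 and 10.9 ± 4.57 RPM at E16, and passed 2-fold without any 1 of 5 cells, up to 1.18. In the same comparison EBF1 stood at 0.43 and EMX2 at 0.70. The member median was -2.14, beside -0.48 for all genes.

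**Figure D4:**
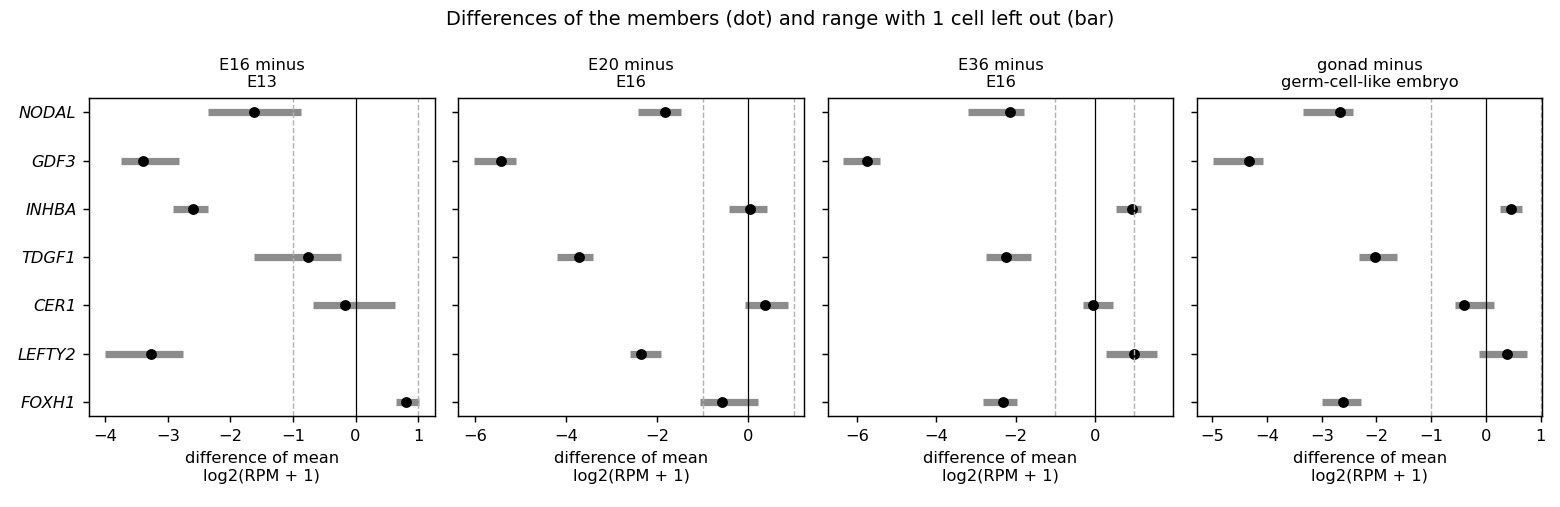
Difference of mean log2(RPM + 1) of each member (dots) in 4 comparisons, first-named group minus second, with the range of the value when each cell is left out in turn (grey bars), a black line at 0 and dashed lines at 2-fold. GDF3 lies past 2-fold lower in all 4 panels with its whole bar, and CER1 lies near 0 in each.

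E16 cells were set against E13 cells, the earliest stage with more than 1 cell. GDF3, LEFTY2, INHBA and NODAL were lower at E16, and of the members INHBA alone separated the stages without overlap. The share of all genes that separate these 11 and 3 cells was not counted. Lower were 4 of 7 members, where 17.2% of 14350 genes were lower, and 0 were higher, where 23.3% were. GDF3 averaged 168 ± 202 RPM at E16 and 644 ± 252 RPM at E13 (n = 11 and 3 cells), a difference of -3.40. LEFTY2 averaged 25.9 ± 42.5 RPM at E16 and 61.0 ± 41.3 RPM at E13, a difference of -3.27. INHBA averaged 10.9 ± 4.57 RPM at E16 and 65.2 ± 21.9 RPM at E13, a difference of -2.60.

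The INHBA difference ran beside -2.42 for EBF1 and -2.95 for EMX2, and beside the depth gap between the stages, whose part was not tested; leaving INHBA out gave 3 of 6 members lower. NODAL stood at -1.62 and ended below 2-fold, at -0.87, without E13 cell 3. Its means were close, 41.3 ± 49.5 RPM at E16 and 48.0 ± 45.1 RPM at E13, and its difference was -0.65 with a pseudocount of 10 and -0.21 on the ratio of means. FOXH1 was at 0.81, with 122 ± 76.0 RPM at E16 and 63.3 ± 16.7 RPM at E13, and reached 1.01 without E13 cell 2. TDGF1 was at -0.76 and reached -1.62 without that cell. The comparisons of E20, E36 and E13 all use the E16 cells, so their member values are given side by side and are not independent of each other.

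Among the other pathway genes, 36 of the 41 listed are in the table. Between gonad and embryo 32 were measured at a mean of 1 RPM or more, 3 were higher and 10 were lower in the gonad, beside 7.62% of all genes higher and 15.1% lower. The lower ones included 4 of 7 SMAD and nuclear partner genes and 4 of 9 antagonist genes, and 0 of 5 receptor genes were lower. MIXL1 averaged 4.99 ± 7.61 RPM in gonad cells against 80.6 ± 141 RPM in embryo cells. BAMBI, a pseudoreceptor that blocks TGF-beta family signalling, averaged 71 ± 79.0 RPM in gonad cells against 329 ± 321 RPM in embryo cells. SMAD7, the inhibitory SMAD, averaged 24.6 ± 32.1 RPM in gonad cells against 67.6 ± 51.4 RPM in embryo cells.

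Of the target genes NANOG, a pluripotency and germ cell factor, averaged 961 ± 325 RPM in gonad cells against 852 ± 652 RPM in embryo cells, with a difference of 1.76. Against the germ-cell-like embryo cells, which averaged 1200 ± 467 RPM, NANOG was no longer called, with a difference of -0.30. INHA, the inhibin alpha subunit gene of gonadal somatic cells, was at 586 RPM in the E47 cell and 212 RPM in E55 cell 2, 2 of the 3 gonad cells richest in somatic markers. In the other 7 gonad cells it stayed below 1 RPM, and the part of somatic transcripts in its level was not tested.

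None of the 5 receptor and 7 SMAD and nuclear partner genes measured beside the members was called lower at E20, where NODAL and GDF3 were. Of 31 measured genes 8 were higher at E20 than at E16 and 5 were lower, beside 13.9% of all genes higher and 18.9% lower. Higher were 3 of 5 receptor genes, among them the type II activin receptor gene ACVR2B, at 147 ± 84.5 RPM at E20 and 54.3 ± 30.6 RPM at E16. SMAD4 averaged 124 ± 73.3 RPM at E20 and 40.2 ± 31.7 RPM at E16. Follistatin, FST, which traps activin, averaged 251 ± 376 RPM at E20 and 25.5 ± 81.3 RPM at E16, where cell 8 alone passed 15 RPM. PMEPA1, a feedback inhibitor induced by TGF-beta, was lower, at 10.2 ± 21.4 RPM at E20 and 44.5 ± 44.6 RPM at E16.

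Of the 8 target genes measured 3 were lower at E20. NANOG averaged 154 ± 248 RPM at E20 and 1173 ± 594 RPM at E16. SOX17, an endoderm and germ cell factor, averaged 146 ± 201 RPM at E20 and 743 ± 483 RPM at E16. NANOG and SOX17 are germ cell genes, and 7 of the 8 E20 cells are mesoderm-like, so class and stage cannot be told apart here.

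At E36 against E16 2 of 30 measured pathway genes were higher and 11 lower, with 5 of 9 antagonist genes and 4 of 7 SMAD and nuclear partner genes among the lower. Both counts are near the shares of all genes, 7.28% higher and 30.2% lower. SMAD4 averaged 21.1 ± 33.3 RPM at E36 and 40.2 ± 31.7 RPM at E16, and T averaged 131 ± 92.2 RPM at E36 and 347 ± 173 RPM at E16. At E16 against E13 3 of 31 were higher and 10 lower, beside 23.3% of all genes higher and 17.2% lower. SMAD4 was higher, at 40.2 ± 31.7 RPM at E16 and 2.56 ± 4.44 RPM at E13, where all 3 cells are shallow. PMEPA1 was lower, at 44.5 ± 44.6 RPM at E16 and 119 ± 33.3 RPM at E13. T was lower, at 347 ± 173 RPM at E16 and 771 ± 149 RPM at E13. The highest E16 cell held 628 RPM of T and the lowest E13 cell 635 RPM.

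**Figure D5:**
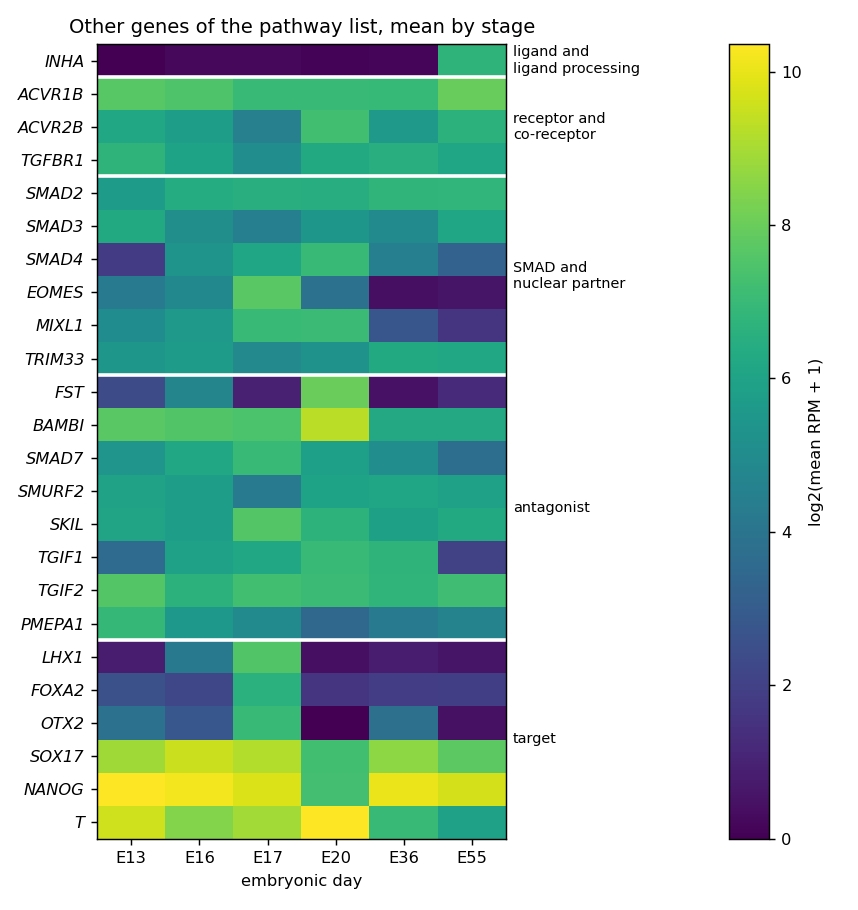
Mean of other pathway genes that reach 50 RPM at a stage (rows, by role; 1 gene is not shown) at the 6 stages with 2 or more cells (columns), as log2(mean RPM + 1) by colour. MIXL1 is darkest at E36 and E55, FST is dark at E17, E36 and E55 and brightest at E20, and the receptor genes ACVR1B, ACVR2B and TGFBR1 keep middle colours at all 6 stages.

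The genes most like each member over the 34 cells were found among 9590 genes at 15 RPM or more in at least 5 cells. For GDF3 the closest was GLDC, a glycine cleavage enzyme gene, with a correlation of 0.68, and the list also held CFC1B, an EGF-CFC co-receptor gene, with 0.64 and WNT3 with 0.63. For LEFTY2 the closest was SLCO1A2 with 0.71, and DPPA3, a germ cell and pluripotency gene, followed with 0.64 as the third. DPPA3 was at 152, 55.4 and 209 RPM in the 3 E36 cells with LEFTY2 above 15 RPM and at 69.0, 24.96 and 11.9 RPM in the other 3, so the levels overlapped. For NODAL the closest were GPR172A and EPHA1, with 0.63 each, and for TDGF1 GPR172A and H1F0, with 0.72 each. CER1 was at 15 RPM or more in too few cells to be compared. These correlations describe cells that share stage and depth, and beside the values of INHBA they are moderate.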

How the data were processed

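Transcripts of 34 single cells were read by SC3-seq, which sequences the 3′ ends of amplified complementary DNA. The authors deposited 1 table of log2(RPM + 1) values, although its name gives RPM: back-transformed, the 34 column sums lay between 992085 and 995711, and low values fell on whole reads, within 0.1 read, for 99.8% to 100% of those in a cell. Per the submitters' processing notes the tools included Cufflinks 2.2.0, TopHat 1.4.1 and cutadapt 1.3; the genome build is not given in the sources used here. Values were turned back to RPM, and the reads per cell were recovered from the size of 1 read, with a median depth of 2.00e+06 reads. The table held 0 other value columns, and 0 pairs of cells shared a column.

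The 7 members were found by human symbol, which 17683 of 28551 genes carry. The members, the pathway and marker lists and the comparisons were chosen with earlier results of these data known. Each stage is 1 sample, so there is no test: means and SDs are over cells, differences are of mean log2(RPM + 1), and a gene counts as measured at a mean of 1 RPM in 1 of the groups and as called at 2-fold. These logs with a pseudocount of 1 understate changes of low genes. Differences on the ratio of means are log2 ratios with 1 RPM added to each mean. Intervals of summed reads are exact Poisson at 95%; the limit for a count of 0 is 3 reads. Clusters are Ward clusters of the 2000 most variable genes, pathway genes left out. Likeness is the Pearson correlation over cells, the 5 highest genes per member being listed. Other pathway genes are named where a stage of 2 or more cells averages 50 RPM and the difference is 2-fold; LEFTY1, EBF1 and EMX2 as companions, and the markers and cells set beside members, were chosen after their values were seen. Values of 2 genes that these rules name are not reported here. Depth recovery and the calls were tested on simulated data, with large changes put into genes averaging 50 RPM or more. Changes near 2-fold and changes in lower genes were not simulated. Alternatives were a pseudocount of 10, the ratio of means, medians, median-of-ratios scaling, thinning to the shallowest cell, minimums of 0 and 10 RPM, label code, cell class, and leaving out each cell (Python 3.11.15, numpy 2.4.6, scipy 1.17.1).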

Additional observations from a re-analysis of the deposited data

Results flagged for a closer look

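Within the 6 E36 cells and the 8 E20 cells, each member was screened for a cell whose gap to the nearest other cell in log2(RPM + 1) was large beside the range of the stage, at Dixon's 95% critical value (0.625 for 6 cells and 0.526 for 8). Of 14 groups 13 had a range, LEFTY2 at E20 being 0 in all cells, and 3 were marked. Chance marks about 1 in 20 groups of evenly measured values, a rate that does not hold for counts of mostly 0, as for GDF3 at E36. NODAL in E36 cell 6 was at 105 RPM, with the next E36 cell at 1.15 RPM. GDF3 in E36 cell 3 was at 0.489 RPM, which is 1 read, with the other E36 cells at 0. CER1 in E20 cell 3 was at 15.3 RPM, with the next E20 cell at 1.87 RPM.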

How the results depend on the processing

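No paired analysis was possible because the labels give no replicate numbers and no difference was tested. Of the counts of members called, 262 values under alternatives stayed within 1.5 times the reported one and 44 did not. Of the other values (differences of single members, shares of all genes and detection by stage), 1441 stayed close, 60 moved and 2 reversed. The 2 called differences that reversed were those of NODAL at E20 against E16, at 2.34 within code MS09 and 2.59 within the germ-cell-like cells, both resting on 1 E20 cell.

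In the gonad against the embryo the count of members higher was 0 with a pseudocount of 10 or on the ratio of means. It was 2 with thinning or within code MS11, and that of members lower was 5 on the ratio of means. Of all genes 8.26% were higher with thinning and 25.6% within code MS11. On the ratio of means 10.4% were higher and 22.9% lower. At E20 against E16 members higher were 1 on the ratio of means and 2 within code MS09 or the germ-cell-like cells, where members lower were 2. On the ratio of means 21.4% of all genes were higher. Within code MS09 20.7% were higher and 38.8% lower, and within the germ-cell-like cells 21.7% were higher and 37.7% lower. At E36 against E16 members higher were 1 on the ratio of means, on medians or within the germ-cell-like cells, and 2 with thinning. There 11.8% of all genes were higher on the ratio of means, 7.42% on medians, 8.47% within the germ-cell-like cells and 8.03% with thinning. At E16 against E13 members higher were 1 on the ratio of means, where 33.7% of all genes were higher. Except where a change is by construction (a pseudocount that shrinks low values, or 1 E20 cell in a class), the cause was not tested.

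Leaving out each cell in turn gave 0 to 2 members higher and 3 to 4 lower in the gonad against the embryo, 0 higher and 4 to 5 lower at E20, 0 to 2 higher and 4 lower at E36, 0 to 1 higher and 3 to 5 lower at E16 against E13, and 0 higher and 4 lower against the germ-cell-like embryo cells. The share of all genes called moved too. With a pseudocount of 10 it was 2.09% higher and 3.38% lower in the gonad against the embryo, and with the 3 gonad cells of most somatic markers left out, a choice made after seeing the data, 25.5% were lower, beside 4 members lower and 1 higher. Within code MS09 38.8% of genes were lower at E20. GDF3 was called lower in each of the 5 comparisons under every alternative run. Depth limits the E13 values most: a count of 0 there allows up to 6.35 RPM in a cell.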
